A study of Homo sapiens with 18 samples.

Results

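Nonsense-mediated mRNA decay (NMD) factors were followed at the level of their own mRNA. The genes were chosen by name: UPF1, UPF2, UPF3A, UPF3B, SMG1, SMG5, SMG6, SMG8 and SMG9, which are 9 of the 39859 gene symbols in the count tables. All 9 had enough reads to be among the 13370 genes tested, so no member was lost to the filter on low counts.

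NMD is a surveillance pathway that removes transcripts on which translation ends early, and it also sets the level of many normal transcripts with upstream reading frames or long 3′ ends. UPF1 is the RNA helicase at its centre, UPF2 and the paralogues UPF3A and UPF3B connect it to the exon junction complex, the kinase SMG1 with its subunits SMG8 and SMG9 phosphorylates it, and SMG5 and the endonuclease SMG6 act on the marked transcript. In human cells the transcripts of several of these factors (UPF1, UPF2, UPF3B, SMG1, SMG5 and SMG6 are usually listed) are themselves degraded by NMD, a form of autoregulation of the pathway.

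The cells were RKO, a human colon carcinoma line, in a version that makes Cas9 on addition of doxycycline. The paper describes its Cas9 lines as clones derived from single cells, whereas cells given a guide RNA were sorted in bulk. Each pool carried 1 guide RNA, either against ERH (sgERH), a small protein that binds RNA-processing complexes, or against the AAVS1 safe-harbour locus (sgAAVS1, control). All 6 groups received doxycycline at 100 ng/mL for 5 days and were then stimulated for 4 h: sgERH_IFNγ and sgAAVS1_IFNγ with IFNγ at 25 ng/mL, sgERH_IL-1β and sgAAVS1_IL-1β with IL-1β at 10 ng/mL, while sgERH_NT and sgAAVS1_NT received water only (non-treated, NT). The comparisons ask whether targeting ERH altered NMD factor transcripts, whether a cytokine did, and whether the guides differed in the response. Because the labels call the 3 replicates of a group biological without naming separate cultures, p-values measure the spread between these libraries, which may be technical.

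Transcript 3′ ends were counted by QuantSeq, which reads next to the poly(A) tail. The study removed 3 of the 18 libraries after a principal component analysis (sgERH_IFNγ replicate 2, sgAAVS1_IL-1β replicate 3 and sgAAVS1_NT replicate 1), which left 8 sgERH and 7 sgAAVS1 libraries of 4987127 to 5986338 reads. Replicate pairs that held a removed library differed by 57.4 to 105 in chi-square per degree of freedom, against 2.46 to 5.54 for the other pairs used. Among the libraries kept, sgERH_IL-1β replicate 2 also stood apart, with 14.2 and 17.4 against its replicates. ERH itself was lower in sgERH (log2 fold change -1.02 ± 0.07, SE, averaged over treatments). QuantSeq reads its 3′ end and not the cut site, and the value is therefore no check of the edit. For the protein, the paper reports depletion of ERH in targeted RKO cells by Western blot. Of 11 markers of colon epithelium, EPCAM, KRT8, KRT18 and CDX2 reached 1 CPM (read count scaled to library size, here the plain total and for single genes below the TMM-adjusted total) and the other 7, CDH1, KRT20 and VIL1 among them, were at or near 0. By guide, EPCAM (log2 fold change 1.25 ± 0.15, SE) and CDX2 (0.81 ± 0.16) were higher in sgERH and KRT18 (-0.75 ± 0.08) and KRT8 (-0.30 ± 0.10) lower (edgeR adjusted p at most 0.0146 for each), and their part in the results that follow was not tested. KRT18 is uncertain because 43.6% of its reads were multimapping, and it held 76.2 of the 125 CPM of the marker list on average. The summed level of that list was 107 to 126 CPM in sgERH and 120 to 145 CPM in sgAAVS1 libraries, and of the leukocyte list and the fibroblast or endothelial list 0 of 6 genes each reached 1 CPM.

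Of the 9 NMD factors, 5 were higher in sgERH than in sgAAVS1 cells on average over the 3 treatments and none was lower. UPF3B rose most (log2 fold change 0.99 ± 0.09, SE), followed by SMG9 (0.79 ± 0.10), UPF1 (0.53 ± 0.07), SMG5 (0.52 ± 0.12) and UPF3A (0.20 ± 0.08). UPF2, SMG1, SMG6 and SMG8 did not pass the test. Rose and fell are used of genes with a Benjamini-Hochberg adjusted p of at most 0.05 over all genes tested with edgeR. By this rule 48.7% of all genes tested were called in this comparison and 25.5% were called higher. The median log2 fold change of the 9 genes was 0.20, against 0.04 over all genes. None of the 9 reached an absolute log2 fold change of 1, the additional threshold the study used, on average. Each library is bulk RNA, so more expressing cells and more RNA per cell cannot be told apart.

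With all 18 libraries in the fit, 4 of the 9 remained called on average with the edgeR adjusted p: UPF3B (0.97, adjusted p = 4.10e-04), UPF1 (0.56, adjusted p = 0.00611), SMG5 (0.52, adjusted p = 0.0185) and SMG9 (0.68, adjusted p = 0.0290). UPF3A had a log2 fold change of 0.26 there, with an edgeR adjusted p of 0.343. Of the 13232 genes tested in that fit, 20.8% were called on average over treatments, against 48.7% in the fit of 15 libraries.

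**Figure D1:**
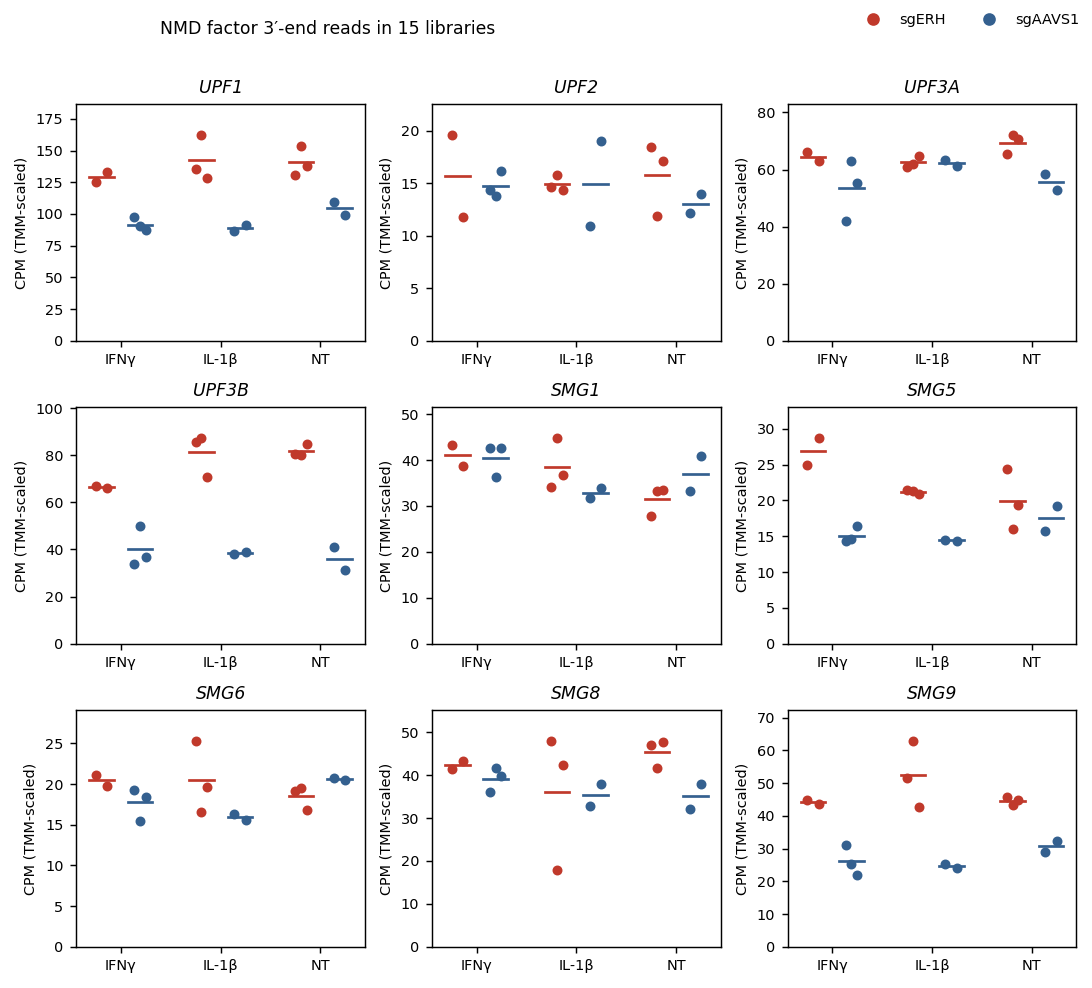
TMM-scaled CPM (vertical axes from 0) of the 9 NMD factors in the 15 libraries, by treatment. Each point is a library, sgERH in red and sgAAVS1 in blue, and bars are group means. For UPF1, UPF3B and SMG9 the red points lie above the blue ones in every treatment, while for UPF2 they overlap in every treatment and for SMG6 they lie below the blue ones in non-treated cells.

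UPF1, UPF3B and SMG9 were the 3 members whose libraries did not overlap between guides: all 8 sgERH libraries lay above all 7 sgAAVS1 libraries. Over all genes tested, 8.10% showed the same separation upward. The windows of 250 bases before to 50 bases after the annotated start of these 3 genes are shown because these genes shared that separation of the guides. Sequences are from RefSeq on GRCh38.p14, read 5′ to 3′ on the strand of the gene, and capitals mark matches on either strand to the GC box (GGGCGG) and the CCAAT box (CCAAT) in UPF3B and UPF1 and to the NRF1 motif (GCGCATGCG) in SMG9. The UPF3B window is chrX:119852914-119853213 (minus strand), the SMG9 window chr19:43754913-43755212 (minus strand) and the UPF1 window chr19:18831709-18832008 (plus strand).
UPF3B: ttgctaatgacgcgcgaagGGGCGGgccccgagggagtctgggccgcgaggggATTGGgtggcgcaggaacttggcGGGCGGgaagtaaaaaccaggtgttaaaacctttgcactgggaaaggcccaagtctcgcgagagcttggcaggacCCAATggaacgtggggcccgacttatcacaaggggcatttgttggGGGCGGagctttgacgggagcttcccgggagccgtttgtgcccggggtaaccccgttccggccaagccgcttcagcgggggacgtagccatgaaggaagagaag
SMG9: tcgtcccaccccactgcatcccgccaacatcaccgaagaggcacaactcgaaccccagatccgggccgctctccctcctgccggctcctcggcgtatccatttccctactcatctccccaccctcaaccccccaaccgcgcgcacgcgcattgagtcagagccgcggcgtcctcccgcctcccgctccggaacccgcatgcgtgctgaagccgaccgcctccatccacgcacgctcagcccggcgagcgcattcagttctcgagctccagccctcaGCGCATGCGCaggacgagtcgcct
UPF1: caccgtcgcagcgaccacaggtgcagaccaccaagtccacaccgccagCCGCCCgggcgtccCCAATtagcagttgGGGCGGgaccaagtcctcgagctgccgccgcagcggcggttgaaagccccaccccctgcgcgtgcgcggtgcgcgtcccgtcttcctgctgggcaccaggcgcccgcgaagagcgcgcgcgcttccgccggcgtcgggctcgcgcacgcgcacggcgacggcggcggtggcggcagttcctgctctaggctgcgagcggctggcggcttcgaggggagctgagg
UPF3B held 3 GC boxes and 2 CCAAT boxes, UPF1 held 2 and 1, and SMG9 held neither but 2 NRF1 matches, 1 on each strand of the same stretch, so that they overlap. No other matches overlap.

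RefSeq gave 15 such windows for 8 of the 9 members, SMG8 being the one without an entry. The GC box was in 10 of the 15 windows (45.0% of all 35116 windows held it) and the CCAAT box in 5 (34.6%). The NRF1 motif was in the SMG9 window alone among the 15 (1.92% of all windows) and an ETS motif (CCGGAAG) in a UPF3A window (10.3%). A cyclic AMP response element (TGACGTCA) was in none of the 15 (1.85% of all windows), nor was the amino acid response element TGATGCAAT (0.236%) or the STAT-bound GAS element TTCNNNGAA (7.66%). All motifs were searched on both strands. These are letter matches and do not show binding.

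UPF3B (ENSG00000125351.14, chromosome X, 119834022 to 119852998, minus strand in GENCODE 44 on GRCh38) encodes the adaptor that joins UPF2 to the exon junction complex. With IFNγ it was at 66.8 and 66.1 CPM in sgERH, against 33.7, 49.8 and 36.7 CPM in sgAAVS1 libraries. With IL-1β it was at 85.4, 87.3 and 70.9 CPM in sgERH, against 38.1 and 39.0 CPM in sgAAVS1. Non-treated sgERH libraries held 80.6, 80.2 and 84.9 CPM and non-treated sgAAVS1 libraries 40.9 and 31.4 CPM. The lowest sgERH library therefore stood above the highest sgAAVS1 library, and the sgERH libraries given IFNγ were the lowest of their guide. The log2 fold change was 0.73 ± 0.15 with IFNγ, 1.07 ± 0.16 with IL-1β and 1.18 ± 0.16 without treatment (edgeR adjusted p = 7.56e-04, 1.04e-05 and 2.54e-06). On average UPF3B was 1.99-fold higher in sgERH (95% interval of the log2 value 0.81 to 1.18, edgeR adjusted p = 5.24e-10), and leaving out any 1 of the 15 libraries gave 0.92 to 1.06.

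By group mean, UPF3B fell into a clear order of guides and no clear order of treatments. The sgERH groups averaged 66.4 ± 0.463 CPM with IFNγ (SD, n = 2), 81.2 ± 8.99 CPM with IL-1β (n = 3) and 81.9 ± 2.59 CPM without treatment (n = 3). The sgAAVS1 groups averaged 40.1 ± 8.60 CPM with IFNγ (n = 3), 38.5 ± 0.568 CPM with IL-1β (n = 2) and 36.2 ± 6.76 CPM without treatment (n = 2), and neighbours among them differed by less than their spread. The IFNγ value of sgERH lay below the range of the other sgERH groups, but the log2 difference from non-treated sgERH, -0.30 ± 0.15 (95% interval -0.60 to 0.00), did not pass the edgeR test (adjusted p = 0.755).

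SMG9 (ENSG00000105771.14, chromosome 19, 43727983 to 43754962, minus strand) encodes a subunit that binds the SMG1 kinase together with SMG8. With IFNγ it was at 44.8 and 43.8 CPM in sgERH and at 31.0, 25.4 and 21.9 CPM in sgAAVS1. With IL-1β the sgERH libraries held 51.7, 62.9 and 42.6 CPM and the sgAAVS1 libraries 25.4 and 24.0 CPM. Without treatment the values were 45.8, 43.3 and 44.9 CPM in sgERH and 29.0 and 32.5 CPM in sgAAVS1. The highest value, 62.9 CPM, came from sgERH_IL-1β replicate 2, the library that stood apart, and the guides did not overlap with or without it. SMG9 was 1.73-fold higher in sgERH on average (95% interval of the log2 value 0.60 to 0.99, edgeR adjusted p = 1.33e-07).

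Within treatments, the log2 difference of SMG9 in sgERH over sgAAVS1 was 0.76 ± 0.17 with IFNγ and 1.08 ± 0.17 with IL-1β (edgeR adjusted p = 0.00111 and 3.11e-05). Without sgERH_IL-1β replicate 2 the IL-1β value was 0.93 (edgeR adjusted p = 2.07e-05). In non-treated cells the difference was 0.54 ± 0.17 (edgeR adjusted p = 0.0180). This call rested on both sgAAVS1_NT libraries: it was lost without replicate 2 (0.46, edgeR adjusted p = 0.147) and without replicate 3 (0.62, edgeR adjusted p = 0.0613). With the removed sgAAVS1_NT replicate 1 and the other removed libraries included, it was -0.09 (edgeR adjusted p = 0.902).

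UPF1 (ENSG00000005007.14, chromosome 19, 18831959 to 18868230, plus strand), the helicase, was counted from 425 to 851 reads per library. With IFNγ it was at 125 and 133 CPM in sgERH, against 97.2, 90.1 and 87.0 CPM in sgAAVS1. With IL-1β it was at 136, 162 and 129 CPM in sgERH, against 86.4 and 91.4 CPM in sgAAVS1. Non-treated libraries held 130.3, 153 and 138 CPM in sgERH and 109.8 and 99.0 CPM in sgAAVS1. The gap between guides was narrower than that of UPF3B relative to the level, yet no sgERH library reached down to the sgAAVS1 range. UPF1 was 1.45-fold higher in sgERH on average (95% interval of the log2 value 0.39 to 0.68, edgeR adjusted p = 4.01e-07). The log2 fold change was 0.50 ± 0.12 with IFNγ, 0.68 ± 0.12 with IL-1β and 0.43 ± 0.12 without treatment (edgeR adjusted p = 0.00293, 1.56e-04 and 0.00912). The last of these was lost without sgAAVS1_NT replicate 3 (0.35, edgeR adjusted p = 0.142).

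SMG5 (ENSG00000198952.8, chromosome 1, 156249224 to 156282825, minus strand), which binds phosphorylated UPF1, had 69 to 158 reads per library. With IFNγ it was at 25.0 and 28.7 CPM in sgERH and at 14.3, 14.6 and 16.4 CPM in sgAAVS1. With IL-1β it was at 21.4, 21.3 and 20.9 CPM in sgERH and at 14.5 and 14.4 CPM in sgAAVS1. Without treatment it was at 24.4, 16.0 and 19.4 CPM in sgERH and at 15.7 and 19.2 CPM in sgAAVS1. The guides were apart under each cytokine, a separation not counted over all genes, and overlapped in non-treated cells. There the log2 difference was 0.19 ± 0.20 (95% interval -0.22 to 0.59, edgeR adjusted p = 0.531). It was 0.83 ± 0.19 with IFNγ (edgeR adjusted p = 0.00236) and 0.55 ± 0.20 with IL-1β (edgeR adjusted p = 0.0456). On average SMG5 was 1.44-fold higher in sgERH (95% interval of the log2 value 0.29 to 0.76, edgeR adjusted p = 4.69e-04). The IL-1β call was near the threshold and was lost in 17 of the 22 alternatives, among them DESeq2 (adjusted p = 0.0764) and 12 of the 15 fits without 1 library (edgeR adjusted p up to 0.201, without sgAAVS1_IL-1β replicate 2).

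UPF3A (ENSG00000169062.15, chromosome 13, 114281601 to 114305817, plus strand) is the paralogue of UPF3B, with weaker NMD activity. It is uncertain here because 66.9% of its reads also mapped elsewhere. It ranged from 61.0 to 72.1 CPM in sgERH libraries (median 65.1) and from 42.0 to 63.2 CPM in sgAAVS1 libraries (median 58.4), so the ranges overlapped. The average difference was 0.20 ± 0.08 (95% interval 0.04 to 0.37, edgeR adjusted p = 0.0408), and no single treatment passed, with 0.27 under IFNγ, 0.01 under IL-1β and 0.32 without treatment (edgeR adjusted p = 0.160, 0.975 and 0.0915). The average call was lost with DESeq2 (adjusted p = 0.0822), on uniquely mapped reads (0.26, edgeR adjusted p = 0.144) and in 9 of the 15 fits without 1 library, where the edgeR adjusted p reached 0.142 without sgAAVS1_NT replicate 3. The other 8 of those libraries were sgERH_IFNγ replicates 1 and 3, sgERH_IL-1β replicate 3, sgERH_NT replicates 2 and 3, sgAAVS1_IFNγ replicate 1 and sgAAVS1_IL-1β replicates 1 and 2.

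**Figure D2:**
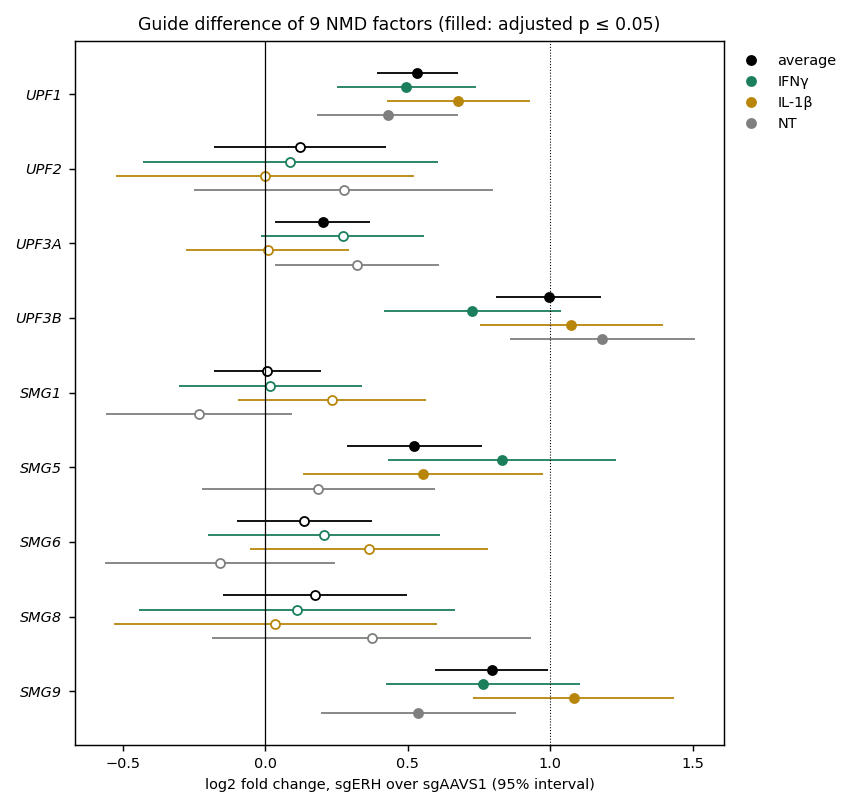
Log2 fold change of each NMD factor in sgERH over sgAAVS1 (horizontal axis, with 95% intervals from edgeR), averaged over treatments and within IFNγ, IL-1β and non-treated cells. Filled points passed an adjusted p of 0.05, the solid line marks 0 and the dotted line the study's fold threshold of 1. UPF3B, SMG9 and UPF1 are filled in all 4 comparisons, SMG5 in 3 and UPF3A on average only.

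The remaining 4 members did not differ by guide beyond the spread between libraries in the edgeR fit, and their intervals bound what could have been missed. SMG1 (ENSG00000157106.18, chromosome 16, 18804860 to 18926408, minus strand), the kinase, ranged from 27.8 to 44.8 CPM in sgERH (median 35.4) and from 31.7 to 42.6 CPM in sgAAVS1 (median 36.4). Its average difference of 0.01 ± 0.09 had a 95% interval of -0.18 to 0.19, the tightest around 0 of the 9. UPF2 (ENSG00000151461.20, chromosome 10, 11920022 to 12043170, minus strand), the bridge between UPF1 and UPF3 proteins, had only 54 to 106 reads per library. It ranged from 11.8 to 19.6 CPM in sgERH and from 10.9 to 19.1 CPM in sgAAVS1, with a difference of 0.12 ± 0.15 (95% interval -0.18 to 0.42).

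SMG6 (ENSG00000070366.14, chromosome 17, 2059839 to 2303785, minus strand), the endonuclease, ranged from 16.6 to 25.3 CPM in sgERH and from 15.5 to 20.8 CPM in sgAAVS1, with an average difference of 0.14 ± 0.12 (95% interval -0.10 to 0.37). Its fitted values ran from -0.16 in non-treated cells to 0.36 with IL-1β, none past the test. Within each treatment the guides did not overlap, sgERH being higher with IFNγ (19.8 and 21.1 CPM, against 15.5 to 19.3 CPM in sgAAVS1) and with IL-1β (16.6 to 25.3 CPM, against 15.6 and 16.3 CPM) and lower without treatment (16.8 to 19.5 CPM, against 20.5 and 20.8 CPM). Groups this small can separate without a difference between guides, and the share of all genes separated in this way was not counted. The 3′ end of SMG6 overlaps HIC1 on the opposite strand (1295 reads in all 18 libraries), and whether the counting used strand is not given in the sources used here.

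SMG8 (ENSG00000167447.13, chromosome 17, 59209400 to 59215239, plus strand), the partner of SMG9 in the kinase complex, turned on a single library. It held 41.4 and 43.2 CPM in sgERH_IFNγ, 47.9, 17.9 and 42.3 CPM in sgERH_IL-1β and 47.0, 41.6 and 47.6 CPM in sgERH_NT. The sgAAVS1 libraries held 36.2, 41.6 and 39.7 CPM with IFNγ, 32.7 and 37.9 CPM with IL-1β and 32.1 and 37.9 CPM without treatment. The 17.9 CPM of sgERH_IL-1β replicate 2 was the lowest of all 15, while the other 7 sgERH values were near or above the top of the sgAAVS1 range. With that library the average difference was 0.17 ± 0.15 (95% interval -0.15 to 0.50, edgeR adjusted p = 0.371), and without it 0.27 (edgeR adjusted p = 0.00426). SMG8 reads are further uncertain because the counts of a second symbol, AC099850.2, lay only 3 to 14 reads below those of SMG8 in all 18 libraries.

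Taken by treatment, 4 of the 9 members were higher in sgERH with IFNγ (25% of all genes were called in either direction and 12.4% higher), 4 with IL-1β (26.5% and 13.3%) and 3 in non-treated cells (26.1% and 12.4%). None was called lower. At an absolute log2 fold change of 1 or more, UPF3B and SMG9 passed with IL-1β (5.68% of all genes were called higher and past that fold) and UPF3B in non-treated cells (5.95%). The 3 genes UPF1, UPF3B and SMG9 passed in each treatment, and SMG5 was the fourth under the cytokines. With all 18 libraries the counts were 1 with IFNγ (SMG5), 1 with IL-1β (UPF3B) and 0 in non-treated cells. Shares of all genes by treatment in that fit are not given here. Without sgERH_IL-1β replicate 2, non-treated cells gave 5 calls, the additional ones being SMG8 (0.37, edgeR adjusted p = 0.0315) and UPF3A (0.32, edgeR adjusted p = 0.0439), since all groups share an estimate of the spread. Without sgAAVS1_NT replicate 3 they gave 1. These comparisons use separate libraries, except that the average contains all of them.

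The split by reported autoregulation did not separate the members. Of the 6 transcripts usually listed as NMD targets, UPF1, UPF3B and SMG5 rose on average and UPF2, SMG1 and SMG6 did not pass, with a median log2 fold change of 0.33. Of the other 3, SMG9 and UPF3A rose and SMG8 did not pass, with a median of 0.20. The difference between these sets was not tested.

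Neither cytokine changed an NMD factor detectably after 4 h. Of 36 tests (9 genes, each cytokine against NT within each guide), edgeR called 0, with 2 at an unadjusted p under 0.05, and DESeq2 also called 0. Few genes were called in these comparisons at all: 0.0299% with IFNγ in sgERH, 0.980% with IFNγ in sgAAVS1, 0.957% with IL-1β in sgERH and 0.920% with IL-1β in sgAAVS1. At an unadjusted p under 0.05 these shares of all genes were 6.64%, 9.37%, 14% and 12.6%. In the same libraries IRF1, a transcription factor induced by IFNγ, rose by 2.07 ± 0.12 in sgERH and by 5.18 ± 0.14 in sgAAVS1 with IFNγ, and the chemokine CXCL1 rose by 4.40 ± 0.28 in sgERH and by 6.08 ± 0.48 in sgAAVS1 with IL-1β (log2, edgeR adjusted p at most 3.86e-09 for each). Values of the 9 NMD factors lay between -0.37 and 0.43, and their 95% intervals reached no further than -0.83 and 0.82. The largest, with unadjusted p under 0.05, were SMG5 (0.43 ± 0.19, edgeR adjusted p = 0.703) and SMG1 (0.38 ± 0.16, edgeR adjusted p = 0.698), both for IFNγ in sgERH.

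**Figure D3:**
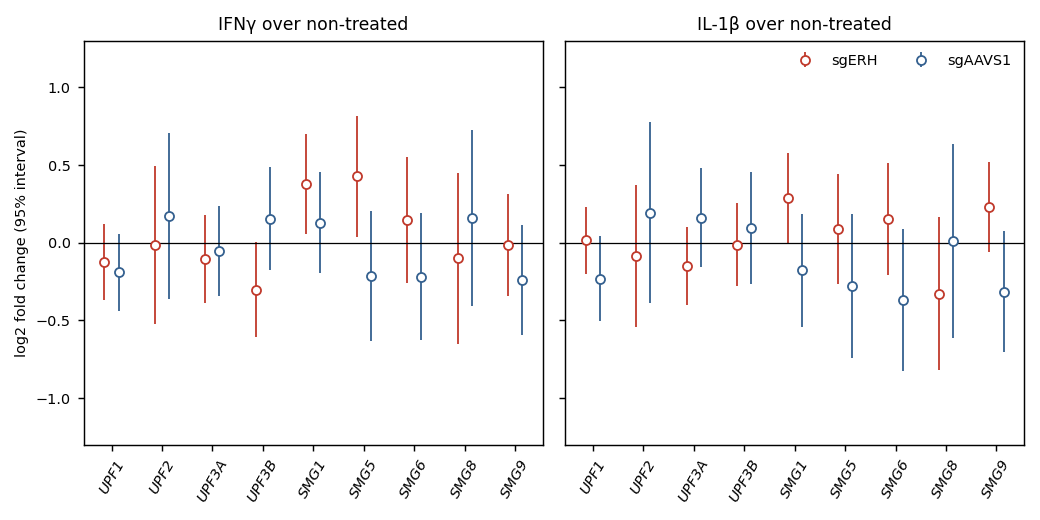
Log2 fold change of the 9 NMD factors with IFNγ (left) and with IL-1β (right) over non-treated cells, in sgERH (red) and sgAAVS1 (blue), with 95% intervals from edgeR. Open points did not pass an adjusted p of 0.05, and all 36 are open, between -0.37 and 0.43.

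The guides were not shown to differ in their cytokine responses. Of 18 interaction tests, edgeR and DESeq2 each called 0, with 4 at an unadjusted p under 0.05 in edgeR, against 0.247% of all genes called for IFNγ and 0% for IL-1β and 5.84% and 11.1% at an unadjusted p under 0.05. These 4 were SMG5 (0.64 ± 0.28) and UPF3B (-0.46 ± 0.22) for IFNγ and SMG9 (0.54 ± 0.24) and SMG1 (0.46 ± 0.23) for IL-1β, as the response in sgERH minus that in sgAAVS1 on the log2 scale (edgeR adjusted p = 0.798, 0.842, 0.410 and 0.449). The intervals over all 18 ran from -1.13 to 1.22 and differed in width between members, from -0.28 to 0.41 for UPF1 and from 0.07 to 1.22 for SMG5 with IFNγ. That SMG5 passed by guide under the cytokines and not in non-treated cells does not show that its guide difference changed.

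Across the 15 libraries Pearson's r of log2 CPM was highest among the 3 members that separated the guides. It was 0.95 between UPF1 and SMG9, 0.90 between UPF1 and UPF3B and 0.86 between UPF3B and SMG9, while the 36 pairs ran from -0.47 to 0.95. All such values contain the difference between guides, and with group means removed these 3 pairs had r = 0.56, 0.26 and 0.03. Pairs with the other members that rose had lower r, from UPF3A with SMG5 (0.34) to SMG5 with SMG9 (0.74, and 0.03 with group means removed). Between these lay UPF3A with SMG9 (0.39, and -0.56 with group means removed) and UPF1 with SMG5 (0.65, and -0.52). UPF3A with UPF3B had 0.70, and its 0.67 with group means removed was the highest of the 36 pairs. The 15 points share library depth and normalization.

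Among 8737 genes with a mean of at least 10 CPM, the profile most like that of UPF1 was PEA15 (r = 0.98 over 15 libraries), that of SMG9 was GOLGA2 (0.97) and that of UPF3B was PPP1R11 (0.97, uncertain because 52.7% of its reads were multimapping). SMG5 was nearest to SELENOM (0.91), UPF3A to MINDY2 (0.90), SMG1 to RBM5 (0.83), SMG6 to SGPL1 (0.81) and UPF2 to RMND5B (0.73). The nearest to SMG8 was AC099850.2 (0.998), whose counts are nearly those of SMG8 itself.

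Other factors of the NMD machinery changed in both directions. Of 21 listed, 20 were tested, and 8 fell, 4 rose and 8 did not pass on average over treatments, with a median log2 fold change of -0.31 (23.2% of all genes were called lower and 25.5% higher). The lowest were the exonuclease XRN1 (-0.80 ± 0.13), the helicase MOV10 (-0.73 ± 0.08), the exon junction core subunits MAGOH (-0.65 ± 0.09) and RBM8A (-0.55 ± 0.07) and the ATPase RUVBL2 (-0.60 ± 0.07). RUVBL1 (-0.39 ± 0.09) and the translation termination factors GSPT1 (-0.31 ± 0.06) and ETF1 (-0.31 ± 0.07) also fell. By treatment, XRN1 was called with IFNγ (-1.31, edgeR adjusted p = 1.09e-04). It was not called with IL-1β (-0.53, edgeR adjusted p = 0.081) or without treatment (-0.56, edgeR adjusted p = 0.0646). MOV10 was called in each treatment. Both XRN1 and MOV10 were past the fold threshold with IFNγ only. Their guide difference in the IFNγ response did not pass (edgeR adjusted p = 0.798 and 0.906). Among those that rose were the helicase DHX34 (0.41 ± 0.09), the MAGOH paralogue MAGOHB (0.34 ± 0.08) and the exon junction disassembly factor PYM1 (0.32 ± 0.09). For these 11 genes the edgeR adjusted p was at most 0.00504.

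Within the exon junction core the paralogues MAGOH and MAGOHB moved apart. MAGOH ranged from 90.3 to 147 CPM in sgERH and from 177 to 223 CPM in sgAAVS1 libraries, with no overlap (9.56% of all genes separated downward in this way). MAGOHB ranged from 48.6 to 59.0 CPM in sgERH and from 34.5 to 49.7 CPM in sgAAVS1, with a small overlap. EIF4A3, the helicase of that core, was at -0.43 ± 0.17 and just missed the threshold (edgeR adjusted p = 0.0529). By treatment, the list counted 5 lower and 3 higher with IFNγ, 5 lower and 2 higher with IL-1β and 9 lower and 1 higher in non-treated cells, where 12.6%, 13.1% and 13.7% of all genes were called lower. With all 18 libraries it counted 4 lower and 2 higher on average, where 20.8% of all genes were called in either direction.

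Most transcripts listed as endogenous readouts of NMD were higher in sgERH. Of 19 symbols, 13 rose on average (25.5% of all genes were called higher) and none fell, with a median log2 fold change of 0.70, and 8 were past the fold threshold (6.75% of all genes were called higher and past it). The list counts 1 gene under both its old and new symbol, CARS and CARS1. Like the list of other NMD factors, it was chosen with earlier results of these data known, so its counts are no independent test. The growth arrest gene GADD45A rose by 1.55 ± 0.07, the stress transcription factors ATF3 by 1.60 ± 0.24, DDIT3 by 1.33 ± 0.09 and ATF4 by 1.11 ± 0.08 (21.3% multimapping reads, uncertain), and the glutathione-degrading enzyme CHAC1 by 1.86 ± 0.21. The snoRNA host transcript GAS5 rose by 1.11 ± 0.06, the kinase MAP3K14 by 1.09 ± 0.24 and GADD45B by 1.08 ± 0.12. Reads were few for CHAC1 (5 to 54 per library), ATF3 (5 to 60) and MAP3K14 (11 to 61), and the guides overlapped for ATF3 and MAP3K14. MAP3K14 was called with IFNγ but not with IL-1β or without treatment (edgeR adjusted p = 0.0899 and 0.0680). The smallest rises were in the snoRNA hosts SNHG15 (0.93 ± 0.16), ZFAS1 (0.70 ± 0.08) and SNHG1 (0.44 ± 0.06), in the pseudokinase TRIB3 (0.54 ± 0.09) and in the asparagine synthetase ASNS (0.23 ± 0.08), the last of which had an edgeR adjusted p of 0.0171 and was lost without sgERH_IFNγ replicate 3, sgAAVS1_IL-1β replicate 1 or sgAAVS1_NT replicate 3 (edgeR adjusted p = 0.107, 0.119 and 0.0980).

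GADD45A, the most widely used of these readouts, separated the guides in every library, from 176 to 279 CPM in sgERH and from 59.6 to 91.0 CPM in sgAAVS1. GAS5 likewise ranged from 538 to 648 CPM in sgERH and from 246 to 295 CPM in sgAAVS1. For SNHG15, ZFAS1, TRIB3 and ASNS the guides overlapped. SNHG15 and ZFAS1 were not called with IL-1β (edgeR adjusted p = 0.200 and 0.0557). TRIB3 was not called without treatment (edgeR adjusted p = 0.0527), nor ASNS with IFNγ or IL-1β (edgeR adjusted p = 0.407 and 0.583). CDKN1A (0.13 ± 0.06, edgeR adjusted p = 0.0698), TBL2 (0.12 ± 0.11), UPP1 (0.07 ± 0.06) and SNHG12 (-0.04 ± 0.09) did not pass. Nor did CARS (0.16 ± 0.09) and CARS1 (0.16 ± 0.12), the cysteinyl-tRNA synthetase, of whose reads 77.8% and 99.0% were multimapping. Most of the protein-coding genes of this list also respond to amino acid or DNA damage stress through ATF4 or p53, and which input moved them was not tested. By treatment 12 of the 19 were higher with IFNγ, 9 with IL-1β and 11 in non-treated cells, where 12.4%, 13.3% and 12.4% of all genes were called higher.

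**Figure D4:**
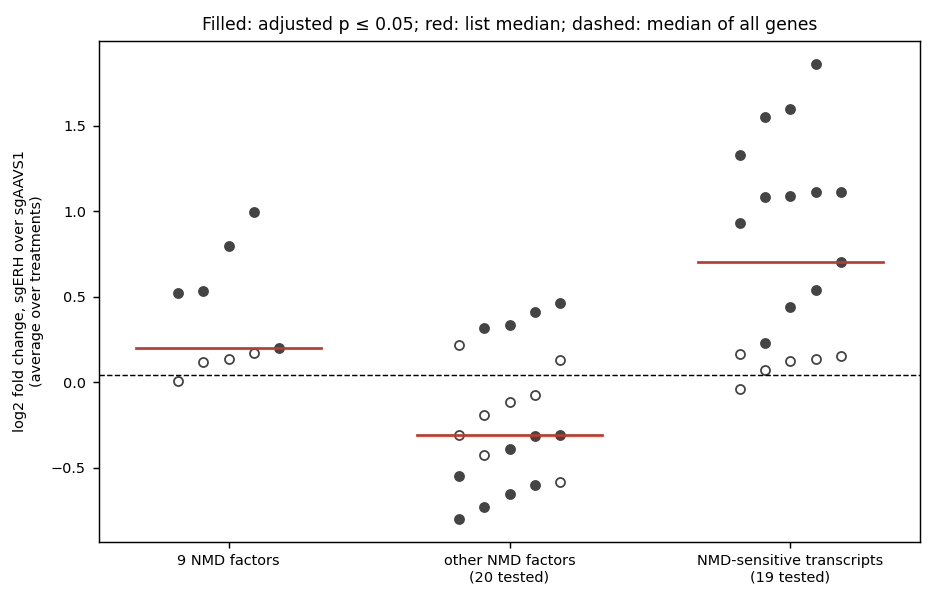
Log2 fold change in sgERH over sgAAVS1 averaged over treatments (vertical axis) for the 9 NMD factors, 20 other NMD factors and 19 symbols of NMD-sensitive transcripts. Each point is a gene, filled where the edgeR adjusted p was at most 0.05, red lines are list medians and the dashed line is the median of all genes. The medians are 0.20, -0.31 and 0.70, against 0.04 for all genes. The lists were chosen with earlier results of these data known.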

How the data were processed

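The authors trimmed reads (Trim Galore 0.6.2, with FastQC 0.11.8), mapped them to GRCh38 and counted them with SlamDunk in 3′ end windows built by 3-GAmES from RefSeq and Ensembl models. The deposited values are raw read counts per gene symbol, collapsed over windows, with multimapping reads given beside them. T-to-C counts in the same tables were not used here. Counts from 15 libraries entered 1 edgeR 4.0.16 model of the 6 groups (R 4.3.3, TMM factors, filterByExpr, robust quasi-likelihood F test), with Benjamini-Hochberg adjustment over 13370 genes and 95% intervals. The 10 comparisons were sgERH against sgAAVS1 on average and per treatment, each cytokine against NT per guide, and the guide difference in each response. CPM were scaled by TMM. Alternatives were DESeq2 1.42.0, its size factors, no filter, all 18 libraries, only the groups compared, uniquely mapped reads, a replicate block and leaving out each library.

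The members, the lists and the rule for named genes were chosen with earlier results of these data known. Named were all 9 members, ERH as the targeted gene, and IRF1 and CXCL1 as checks of the cytokines. Also named were up to 5 highest and 5 lowest called genes of each list, any past the fold threshold, and the gene most alike to each member. Some entries are not reported here. No molecular identifiers are described, so amplified copies of a molecule may be counted as separate reads. Read numbers therefore give at best an upper limit of precision. No 2 libraries held identical counts.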

Additional observations from a re-analysis of the deposited data

Results flagged for a closer look

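Both values that follow concern genes whose libraries moved in opposite directions in the 2 guides. They were found by searching all members for such patterns, and the share of all genes that show one was not counted. UPF3A was lower with IL-1β than without treatment in every sgERH library and higher in every sgAAVS1 library. The interaction term, sgERH response minus sgAAVS1 response, was -0.31 ± 0.20 on the log2 scale and did not pass (edgeR adjusted p = 0.545). UPF3A is uncertain for its 66.9% of multimapping reads, and the pattern did not hold on uniquely mapped reads, of which sgERH_IL-1β replicate 3 held 152, against 115, 119 and 136 in the sgERH_NT libraries. SMG6 was higher with IFNγ than without treatment in every sgERH library and lower in every sgAAVS1 library, with a difference of 0.37 ± 0.28 that did not pass either (edgeR adjusted p = 0.914).

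The removed library sgERH_IFNγ replicate 2 had a higher CPM, scaled to its total without TMM, than any of the 15 libraries used for 5 of the 9 members. The share of all genes for which a removed library lay beyond the 15 was not counted. This library held 4293010 reads, 24.0% of them multimapping, against 20.4 to 23.2% in the 15 libraries used. It was at 187 CPM for UPF1, 75.2 CPM for UPF3A, 93.4 CPM for UPF3B, 41.7 CPM for SMG5 and 85.5 CPM for SMG9, where the 15 libraries reached 165, 74.8, 89.4, 30.1 and 64.0 CPM. The same library was below all 15 for UPF2 (4.43 CPM), SMG6 (6.06 CPM) and SMG8 (6.99 CPM). The removed sgAAVS1_NT replicate 1 was also below all 15 for UPF2 (4.72 CPM), SMG6 (5.77 CPM) and SMG8 (2.36 CPM), and for UPF1 (60.1 CPM) and SMG1 (13.4 CPM), whereas its SMG9, at 63.0 CPM, was close to the highest of the 15. The removed sgAAVS1_IL-1β replicate 3 was below all 15 for UPF3A (19.6 CPM), UPF3B (26.6 CPM), SMG6 (14.3 CPM) and SMG8 (14.6 CPM).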

How the results depend on the processing

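On average over treatments UPF1, UPF3B, SMG5 and SMG9 kept their direction and their call in all 21 alternatives. The counts of members called changed by over 1.5 times with all 18 libraries (0 in non-treated cells, 1 with IFNγ, 1 with IL-1β, against 3, 4 and 4) and, in non-treated cells, with only the groups compared (5) and over fits without 1 library (1 to 5). With all 18 libraries other NMD factors counted 4 lower and 2 higher, against 8 and 4. On average over treatments, 20.8% of all genes were called in that fit, against 48.7% in the main fit. Alternatives for the lists were added after seeing the data. The cause was not tested. The all-18 fit turned the sign in non-treated cells of SMG1 (0.055), SMG5 (-0.037), SMG6 (0.18) and SMG9 (-0.086), with IFNγ of UPF2 (-0.31), SMG6 (-0.19) and SMG8 (-0.37), with IL-1β of UPF2 (0.034), and of UPF3B in the guide difference of the IFNγ response (0.10). Only SMG9 among these had been called. Values near 0 also changed sign: SMG1 on average with DESeq2 size factors (-7e-04), DESeq2 (-0.0021) and no filter (-0.0090), SMG1 with IFNγ under the same (-0.0049, -0.0061, -0.0031), UPF2 with IL-1β under only the groups compared (0.0054), and UPF3A with IL-1β under no filter (-0.012) and uniquely mapped reads (-0.098). Fits without 1 library gave -0.019 to 0.27 for UPF2 and -0.044 to 0.049 for SMG1 on average, -0.32 to 0.40 for UPF2 and -0.067 to 0.092 for SMG1 with IFNγ, and -0.36 to 0.45 for UPF2, -0.020 to 0.028 for UPF3A and -0.22 to 0.35 for SMG8 with IL-1β.

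The labels do not say whether same-numbered libraries of different groups were paired, and the main model treated them as unpaired. Over 30 such pairs, r of their deviations from group means ran from -0.06 to 0.14, with 1 over 0.1. In groups of 2 libraries these deviations mirror each other, so the values cannot decide whether there was pairing. With the replicate block 5 members were called on average, 4 with IFNγ, 3 with IL-1β and 3 in non-treated cells, and UPF2 (0.0014) and SMG8 (-0.059) changed sign with IL-1β. UPF2, SMG5 and SMG6 had the fewest reads, 54 at the lowest, which limits their intervals.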
